A study of Mus musculus with 4 samples.

Results

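The genes described here encode the machinery that brings proteins into mitochondria and folds them there. They were chosen by symbol, as every gene named *Timm* or *Tomm* followed by a digit, together with *Hspd1*, *Hspe1*, *Hspa9*, *Trap1*, *Grpel1*, *Grpel2*, *Dnajc19*, *Pmpca*, *Pmpcb*, *Samm50*, *Phb* and *Phb2*. Earlier results of these data were known when this choice was made. The rule found 36 of the 21091 genes in each expression file, and 34 of them averaged 1 FPKM or more over the 4 libraries (FPKM being a count of sequenced fragments corrected for transcript length and library size). By place, 10 act in the outer membrane, 1 in the cytosol, 7 in the intermembrane space, 8 in the inner membrane and 8 in the matrix, and 2 are prohibitins of the inner membrane.

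RNA was measured in cultured neural progenitors from C57BL/6 mouse brains, taken at embryonic day 11 (E11) or 14 (E14). At each stage 1 library came from control cells (CTL, labelled WT) and 1 from cells of the conditional *Stat3* knockout genotype (*Stat3* cKO), so 4 libraries make up 4 groups. Cre recombinase was expressed from a rat *Nestin* promoter and enhancer, and the floxed exons encode the SH2 domain of STAT3, a transcription factor activated by cytokine receptors. The study's methods name the RNA-seq controls as wild-type but elsewhere use control mice with *Nestin*-Cre and 1 floxed allele, and the labels do not say which applies here. All cells were grown for 3 days in suspension as neurospheres with EGF and FGF, and how many embryos went into a library is not given in the sources used here. No replicate exists in any group, so every ratio below compares one library with another, without a test.

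Most mitochondrial proteins are made in the cytosol and enter through the TOM complex of the outer membrane. From there SAM inserts outer membrane barrels, small TIM chaperones escort hydrophobic proteins across the intermembrane space, and the TIM23 and TIM22 complexes pass proteins through or into the inner membrane. In the matrix, mitochondrial HSP70 pulls the chain in, a processing peptidase removes the targeting sequence, and the HSP60 and HSP10 chaperonin folds the product. Mitochondria grow and divide with the cells that hold them and rely on this route for nearly all of their proteins.

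*Stat3* itself had 7.41 FPKM in CTL and 6.74 in cKO at E11, and 27.6 and 9.56 at E14. The log2 ratio of cKO to CTL was therefore -0.14 at E11 and -1.53 at E14, and the whole-gene value does not isolate the floxed exons. The study describes the knockout in progenitors as achieved by the later stage, and these values do not show a loss of *Stat3* in the library labelled cKO at E11. *Ddx3y*, on the Y chromosome, was at 0 FPKM at E11 in both genotypes, and at E14 it was at 0.0569 in CTL and 25.1 in cKO, so the E14 libraries differ in Y-linked RNA as they do in genotype, and these cannot be told apart. All 9 neural progenitor markers were present in the 4 libraries. The 5 mesenchymal markers summed to 1143 and 1057 FPKM in the CTL and cKO libraries at E11 but to 12.3 and 8.67 at E14. Of the 5 oligodendrocyte lineage markers, *Olig1*, *Olig2* and *Sox10* were higher at E14 than at E11 in both genotypes, while *Mbp* and *Pdgfra* were lower at E14 in CTL (log2 ratios of -0.54 and -0.56). Glial markers also moved with genotype at E14. *Sox10*, *Mbp* and *Pdgfra* were at least 1.5-fold higher in cKO (log2 ratios of 1.61, 1.26 and 0.77), *Olig1* and *Olig2* had -0.15 and -0.32, and the list median was 0.77. The 4 astrocyte markers summed to 84.6 FPKM in CTL and 148.5 in cKO at E14 and to 10.6 and 8.60 at E11, and the 3 that averaged 1 FPKM or more were all at least 1.5-fold higher in cKO at E14 (median log2 ratio 1.20), while *Gfap*, under 1 FPKM in every library, was lower in cKO (0.901 in CTL and 0.186 in cKO). The E14 median was 0.38 for the 9 neural progenitor markers (7 higher in cKO) and -0.25 for 6 neuron markers (5 lower). Of all genes, 60.1% were lower in cKO at E14 and 5.82% were at least 1.5-fold higher. The part of all these markers in the stage and genotype ratios below was not tested. The 5 microglia and leukocyte markers lay under 1 FPKM in every library. In bulk RNA, fewer cells of a type and less RNA per cell cannot be told apart.

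The import and chaperone genes were at their highest in E14 CTL. Of the 34 members that averaged 1 FPKM or more, 31 had their highest value in that library, against 39.3% of all genes at that minimum, and 24 did after each library was divided by its upper quartile, against 22% of all genes. Their FPKM summed to 1866 in CTL and 1853 in cKO at E11, and to 3822 and 2714 at E14, and their medians were 32.9, 35.7, 71.7 and 49.2. The exceptions were *Hspa9*, highest in E11 CTL, *Tomm6*, highest in E11 *Stat3* cKO, and *Timm17b*, highest in E14 *Stat3* cKO. By sum and by median, the E11 libraries were close to each other and E14 *Stat3* cKO lay between them and E14 CTL. The FPKM of all genes summed to 948738 in CTL and 806587 in cKO at E11, and to 1394045 and 1461770 at E14. The members' sums were not scaled to these totals.

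**Figure D1:**
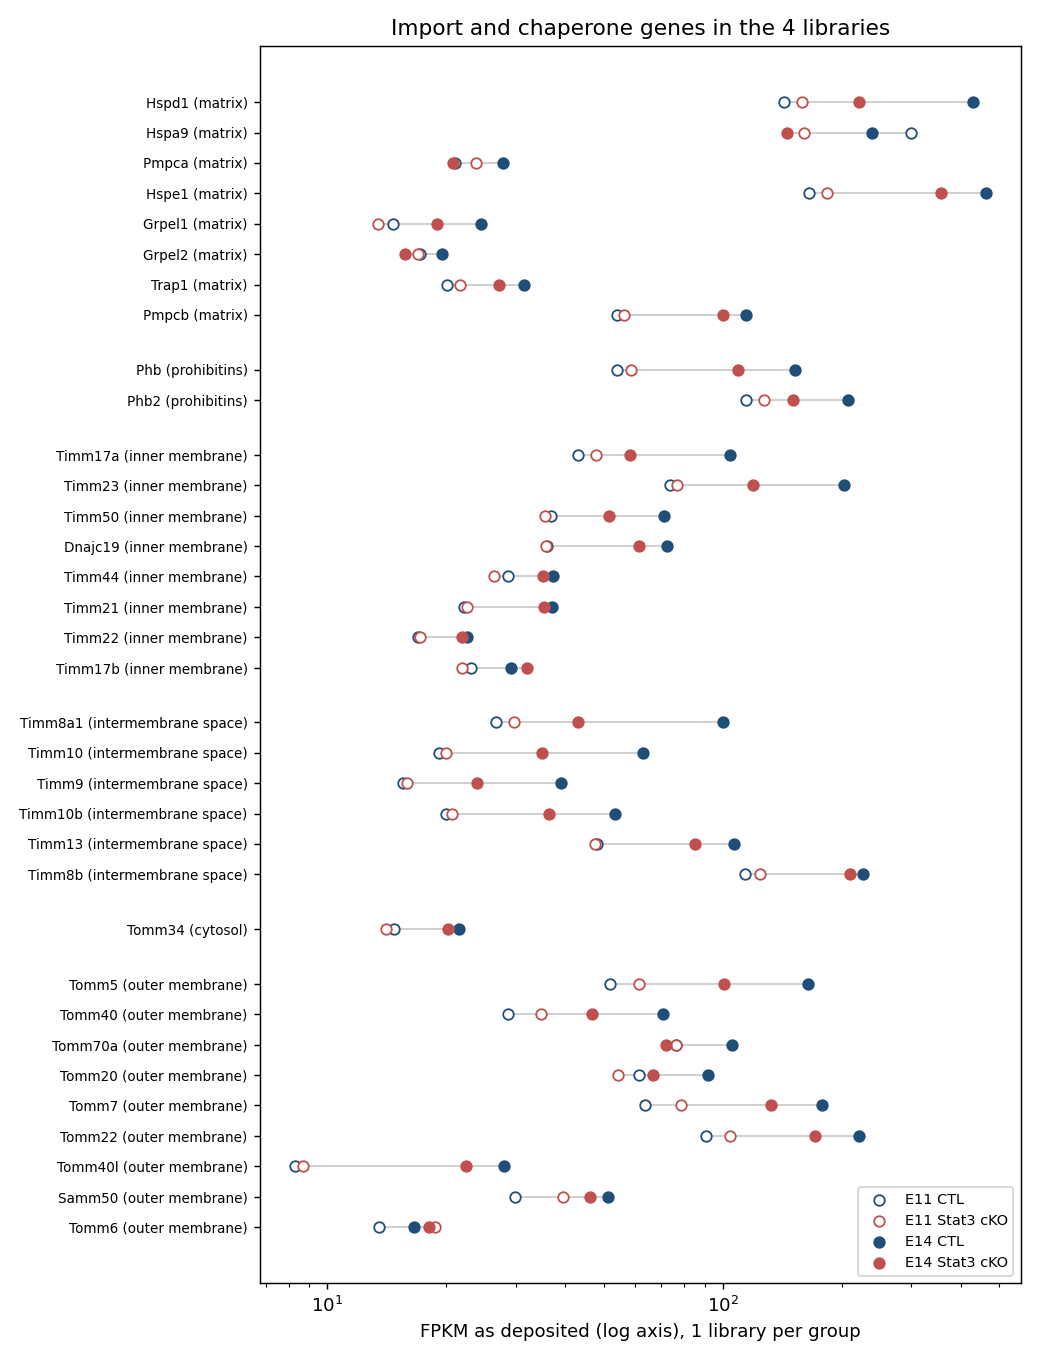
Level of each of the 34 members in FPKM on a log axis, with 1 point per library (open, E11; filled, E14; blue, CTL; red, *Stat3* cKO) and the genes grouped by place. The filled blue point of E14 CTL lies farthest right for 31 members, and the open points of E11 mostly lie close together.

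At E14, *Stat3* cKO progenitors had less of most of these transcripts than CTL. The ratio of cKO to CTL was below 1 in 32 of 34 members, where 60.1% of all genes lay below 1. It was at least 1.5-fold lower in 9, or 26.5% of members, against 7.67% of all genes, and at least 1.5-fold higher in 0, against 5.82%. Only *Timm8a1* was at least 2-fold lower, against 1.69% of all genes. The median log2 ratio of the members was -0.40, compared with -0.08 over all genes and -0.17 over genes averaging 50 FPKM or more. After upper-quartile scaling 26 members lay below 1, against 40.3% of all genes, and 5 were at least 1.5-fold lower, against 4.44%. These 5 were *Timm8a1*, *Hspd1*, *Timm10*, *Timm17a* and *Timm23*, so that *Timm9*, *Hspa9*, *Tomm5* and *Tomm40* no longer passed (log2 ratios of -0.56, -0.55, -0.55 and -0.45).

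At E11 the members had the same median ratio of cKO to CTL as all genes. The ratio was above 1 in 23 of 34 members, where 61.8% of all genes lay above 1, and it was within 10% of 1 in 20 members, against 46.9% of all genes. At E14 it was within 10% of 1 in 8 members, against 34.7%. *Hspa9* was the 1 member at least 1.5-fold lower, against 3.66% of all genes, and 0 members were at least 1.5-fold higher, against 2.18%. The median log2 ratio was 0.06 for the members, 0.06 for all genes and 0.10 for genes averaging 50 FPKM or more. The sign of the members' median turned negative after upper-quartile scaling (-0.06, with 13 members and 37.2% of all genes above 1) or with the median of the genes of at least 50 FPKM set to 0 (-0.04, with 15 members and 41.5% of all genes above 1). As deposited, 22 members were higher in cKO at E11 and lower in cKO at E14, against 38.7% of all genes and 55.1% of those averaging 50 FPKM or more. A further 10 were lower at both stages, against 21.5% of all genes, *Tomm6* was higher at both, and *Timm17b* was lower at E11 and higher at E14. After upper-quartile scaling these classes changed order, with 10 members higher at E11 and lower at E14, against 16.7% of all genes, and 16 lower at both stages, against 23.6%. A test of the difference between the stages is not possible with 1 library per group.

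Between E11 and E14 the members were higher at the later stage in CTL, and less so in *Stat3* cKO. In CTL the ratio of E14 to E11 was above 1 in 33 members, where 60.5% of all genes lay above 1, and at least 2-fold higher in 17, against 14.6%. In *Stat3* cKO it was above 1 in 29 members, against 53.3%, and at least 2-fold higher in 1, *Tomm40l*, against 10.1%. No member was at least 2-fold lower in either genotype (0 in each), against 12.5% of all genes in CTL and 11.7% in *Stat3* cKO. The median log2 ratio was 1.0 in CTL, beside 0.21 for all genes and 0.60 for genes averaging 50 FPKM or more, and 0.54 in *Stat3* cKO, beside 0.06 and 0.33. After upper-quartile scaling the CTL median was 0.66 with 10 members at least 2-fold higher, against 7.6% of all genes. With the median of the genes averaging 50 FPKM or more set to 0, it was 0.40 with 4 members at least 2-fold higher, against 4.85% of all genes, and the *Stat3* cKO median was 0.21. Under that centring 24 members lay above 1 in each genotype, against 29.4% of all genes in CTL and 34.2% in *Stat3* cKO. As deposited, the 2-fold count in CTL held 5 of 9 outer membrane, 5 of 6 intermembrane space, 3 of 8 inner membrane and 3 of 8 matrix members, and *Phb*. The ratio of E14 to E11 was larger in CTL than in *Stat3* cKO for 31 of 34 members, against 62.1% of all genes and 76.1% of those averaging 50 FPKM or more. Of the 16 members that reached 2-fold in CTL alone, 11 reached 1.5-fold in *Stat3* cKO. The matching share of all genes was not computed, so this count is not set against a background. The E14 CTL library enters both this comparison and the E14 genotype comparison, so the counts at E14 and those over time rest in part on the same values.

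**Figure D2:**
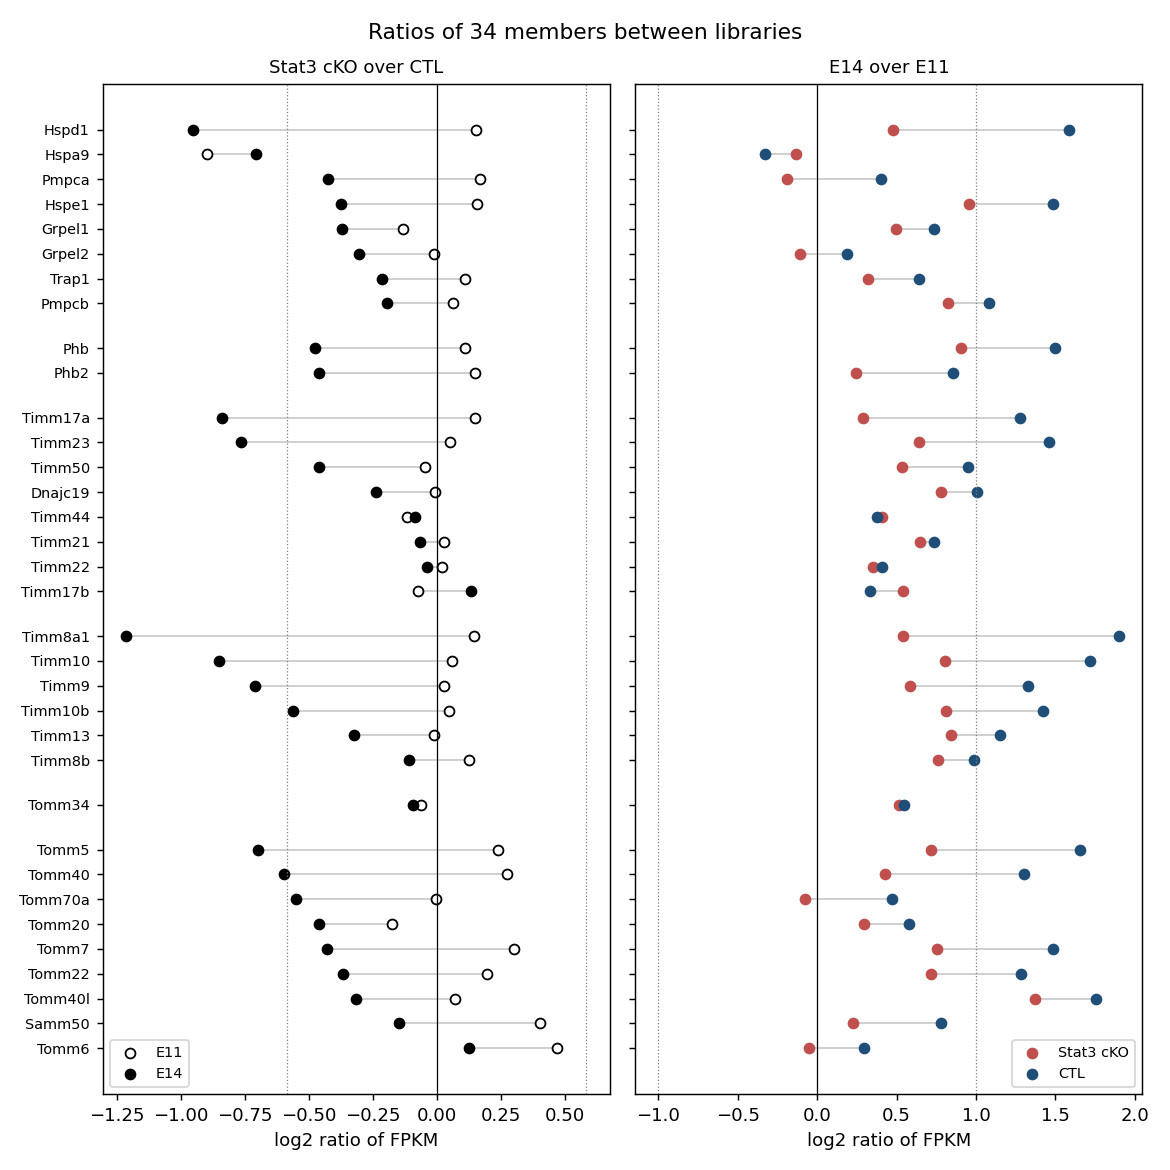
log2 ratios of FPKM for each of the 34 members, with *Stat3* cKO over CTL on the left (open, E11; filled, E14; dotted lines at 1.5-fold) and E14 over E11 on the right (red, *Stat3* cKO; blue, CTL; dotted lines at 2-fold). On the left 32 filled points lie below 0, and on the right the blue point lies beyond the red one in 31 members.

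The outer membrane genes include the receptors and channel of TOM. *Tomm40*, the channel that precursors pass through, had 28.7 FPKM in CTL and 34.7 in cKO at E11, and 70.9 and 46.8 at E14. *Tomm5*, a small subunit that helps to assemble the channel, had 52.0, 61.5, 164.0 and 101.1 FPKM in the same order, which also holds wherever 4 values follow a gene below. Both were somewhat higher in cKO at E11 (ratios of 1.21 and 1.18) and lower at E14 (0.661 and 0.616), and they were the 2 of 9 measured outer membrane members at least 1.5-fold lower at E14 as deposited, beside 7.67% of all genes. After upper-quartile scaling the count was 0. *Tomm40* was also the member just inside that threshold, and *Timm10b*, at 0.677, lay just outside it.

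The receptors had E14 genotype ratios nearer to 1. *Tomm20*, which reads amphipathic targeting sequences, had 61.3 FPKM in CTL and 54.4 in cKO at E11, and 91.7 and 66.6 at E14. *Tomm70a*, the receptor for carrier proteins handed over by cytosolic chaperones, had 76.2, 76.1, 105.6 and 72.1 FPKM, so the E14 *Stat3* cKO value lay within 10% of both E11 values. *Tomm22*, the central receptor and organiser of TOM, had 90.7, 104.1, 220.9 and 171.3 FPKM. The ratios of cKO to CTL at E14 were 0.726, 0.683 and 0.775 for *Tomm20*, *Tomm70a* and *Tomm22*.

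*Tomm7*, which modulates TOM assembly, had 63.5, 78.3, 178.2 and 132.3 FPKM in the same order. *Samm50*, the core of the complex that inserts barrel proteins, had 29.9, 39.5, 51.2 and 46.3 FPKM. It had the second highest ratio of cKO to CTL at E11, at 1.32, after *Tomm6* at 1.39. The median log2 ratio of cKO to CTL over the 9 outer membrane members was 0.24 at E11, the highest of the groups, and -0.43 at E14, or 0.12 and -0.28 after upper-quartile scaling.

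*Tomm40l*, a paralogue of the channel, was the lowest of the 9 measured outer membrane members at E11. It had 8.28 FPKM in CTL and 8.69 in cKO at E11, and 28.0 and 22.5 at E14, and was the only member at least 2-fold higher at E14 in both genotypes (3.38-fold in CTL and 2.59-fold in *Stat3* cKO). The ratio of *Tomm40* to *Tomm40l* within each library, in which any scaling of a library cancels, was 3.47, 3.998, 2.53 and 2.08. *Tomm6* had 13.5, 18.7, 16.5 and 18.0 FPKM, and its locus is shared with the antisense gene *Gm14872*. Whether reads were counted by strand is not given in the sources used here, so *Tomm6* values may hold reads of both. In all, 11 members share a listed locus with another gene, and the same limit holds for them: *Tomm40l* (with *Nr1i3*), *Timm13* (*Tmprss9*), *Timm8b* (*Pih1d2* and *AU019823*), *Dnajc19* (*Fxr1*), *Timm21* (*Fbxo15*), *Grpel1* (*Tada2b*), *Pmpca* (*Inpp5e*), *Trap1* (*Dnase1*), and *Timm9* and *Tomm20l* with each other. *Tomm20l*, a paralogue of *Tomm20*, had 0.0893 and 0.183 FPKM at E11 and was listed at 0 in both E14 libraries, under the minimum mean. *Tomm34*, a cytosolic co-chaperone, had 14.7, 14.1, 21.5 and 20.2 FPKM, with genotype ratios of 0.957 at E11 and 0.938 at E14.

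The small TIM chaperones of the intermembrane space had the lowest median ratio of cKO to CTL at E14 of any place. *Timm8a1*, which lies on the X chromosome and encodes the TIM8A chaperone that is lost in human deafness-dystonia syndrome, had 26.8 FPKM in CTL and 29.6 in cKO at E11, and 100.1 and 43.1 at E14. At E14 its ratio of 0.430 was the lowest of all 34 members, and in CTL its ratio of E14 to E11, 3.74, was the highest. Its paralogue *Timm8b* had 114.1, 124.3, 226.6 and 210.4 FPKM, with an E14 genotype ratio of 0.929. The ratio of *Timm8a1* to *Timm8b* was 0.235 in CTL and 0.238 in cKO at E11, and 0.442 and 0.205 at E14, so only E14 CTL stood apart within this pair.

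*Timm9* and *Timm10* form the hexamer that carries hydrophobic precursors to TIM22. *Timm10* had 19.2 FPKM in CTL and 20.0 in cKO at E11, and 63.1 and 35.0 at E14. *Timm9* had 15.6, 15.9, 39.1 and 23.9 FPKM, and its listed locus overlaps that of *Tomm20l*. Both genes had nearly the same level in the 2 genotypes at E11 and were at least 1.5-fold lower in cKO at E14 (0.554 and 0.611), and the ratio of *Timm9* to *Timm10* moved by 1.31-fold at most over the 4 libraries, the least of the 10 pairs compared. *Timm10b*, a small TIM bound to TIM22, had 20.0, 20.7, 53.6 and 36.3 FPKM. *Timm13*, the partner of TIM8 proteins, had 48.0, 47.7, 106.7 and 85.3 FPKM. The 6 measured members had a median log2 ratio of cKO to CTL of 0.05 at E11 and -0.64 at E14. At E14 3 were at least 1.5-fold lower, beside 7.67% of all genes. After upper-quartile scaling the medians were -0.07 and -0.48, and 2 were at least 1.5-fold lower, without *Timm9*, beside 4.44% of all genes. *Timm8a2*, a further TIM8 gene, lay at 0.0641 to 0.161 FPKM, under the minimum mean.

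In the inner membrane, *Timm23*, *Timm17a* and *Timm50* had the lowest E14 genotype ratios. *Timm23*, the channel subunit, had 73.8 FPKM in CTL and 76.5 in cKO at E11, and 202.6 and 119.3 at E14. *Timm17a*, one of the 2 alternative TIM17 subunits of the channel, had 43.0, 47.8, 104.3 and 58.4 FPKM. *Timm50*, the receptor that takes precursors from TOM, had 36.8, 35.6, 71.1 and 51.6 FPKM. The E14 ratios of cKO to CTL were 0.589 for *Timm23*, 0.560 for *Timm17a* and 0.726 for *Timm50*.

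*Timm17b*, the other TIM17 subunit, had the highest E14 genotype ratio of all 34 members. The gene, on the X chromosome, had 23.1 FPKM in CTL and 21.9 in cKO at E11, and 29.1 and 31.9 at E14, with an E14 genotype ratio of 1.098. The ratio of *Timm17a* to *Timm17b* was 1.86 in CTL and 2.18 in cKO at E11, and 3.59 and 1.83 at E14. As with *Timm8a1* and *Timm8b*, E14 CTL was the library with the high ratio and E14 *Stat3* cKO had the lowest.

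The remaining inner membrane members had E14 ratios closer to 1. *Timm22*, the channel for carrier proteins, had 16.9, 17.2, 22.5 and 21.9 FPKM in the same order. *Timm44*, which tethers mitochondrial HSP70 to the channel, had 28.7, 26.5, 37.3 and 35.2 FPKM, and *Timm21*, which links TIM23 to TOM and the respiratory chain, had 22.1, 22.5, 36.9 and 35.3 FPKM. *Dnajc19*, the J-protein that activates HSP70 at the channel, had 36.0, 35.8, 72.4 and 61.4 FPKM. The E14 genotype ratios were 0.975, 0.944, 0.956 and 0.848 for *Timm22*, *Timm44*, *Timm21* and *Dnajc19*, and those of the first 3 turned above 1 after upper-quartile scaling. The 8 inner membrane members had a median log2 ratio of cKO to CTL of 0.01 at E11 and -0.16 at E14, which at E14 was the nearest to 0 of the groups of more than 1 gene and close to the -0.17 of genes averaging 50 FPKM or more. After upper-quartile scaling these medians were -0.12 and -0.0083, and the E14 median was 0.0056 with the genes averaging 50 FPKM or more centred on 0.

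The prohibitins form a ring scaffold in the inner membrane that stabilises newly made proteins. *Phb* had 54.1 FPKM in CTL and 58.5 in cKO at E11, and 152.6 and 109.6 at E14, and *Phb2* had 114.7, 127.1, 207.2 and 150.7. Their E14 genotype ratios were alike, at 0.718 and 0.727. The ratio of *Phb* to *Phb2* was 0.472 and 0.460 in the E11 libraries and 0.737 and 0.728 in the E14 libraries, so it differed by stage and little by genotype.

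**Figure D3:**
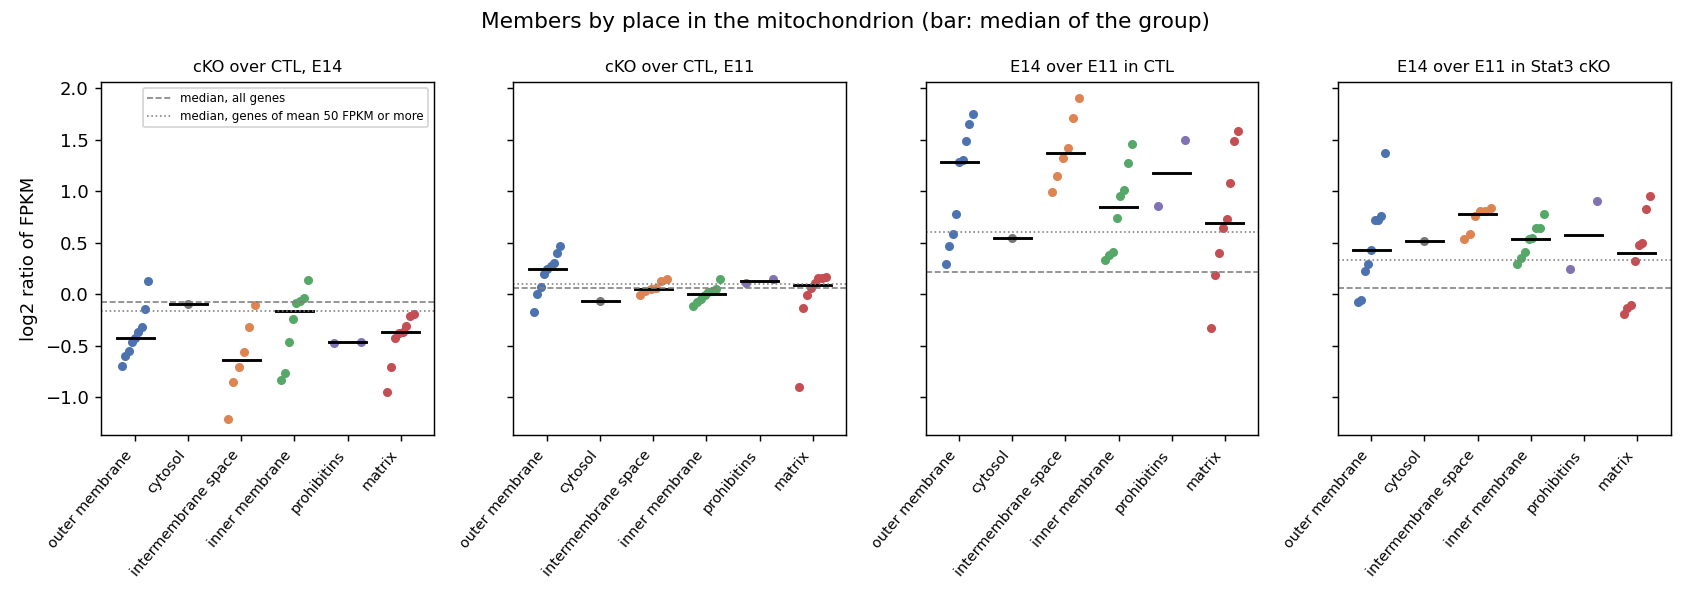
log2 ratios of FPKM for members by place, with 1 point per gene and a bar at each group's median, in the 2 genotype comparisons and the 2 stage comparisons. The dashed line is the median of all genes and the dotted line that of genes averaging 50 FPKM or more. At E14 the intermembrane space bar is lowest, at -0.64, and in CTL over time the intermembrane space and outer membrane bars are highest, at 1.37 and 1.28.

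The matrix chaperonin is made of HSP60, encoded by *Hspd1*, and its lid HSP10, encoded by *Hspe1*. *Hspd1* had 142.6 FPKM in CTL and 158.9 in cKO at E11, and 428.6 and 221.3 at E14. *Hspe1* had 165.2, 184.0, 463.4 and 357.2 FPKM, the highest member in every library but E11 CTL. At E11 both had a genotype ratio of 1.11, and at E14 the ratios were 0.516 and 0.771. The ratio of *Hspd1* to *Hspe1* was 0.863 in CTL and 0.863 in cKO at E11, and 0.925 and 0.619 at E14, so the last library stood apart from the other 3. The annotation lists 5 pseudogene copies of *Hspd1*, 6 of *Hspe1*, and 1 each of *Hspa9* and *Dnajc19*. How reads shared with such copies were assigned is not given in the sources used here.

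*Hspd1* and *Hspe1* lie head to head on chromosome 1 and share a promoter region, which is why a piece of it is shown. In RefSeq (GRCm38.p6) one *Hspd1* start site, at 55087932 on the minus strand, lies 216 bases from the *Hspe1* start site, at 55088148 on the plus strand. The 30 bases at chr1:55088054-55088083 (plus strand), which end 65 bases before the *Hspe1* start, hold 2 overlapping kinds of motif in capitals, the heat shock inverted repeat GAANNTTC and the ETS core CCGGAA, the latter on both strands.
Hspe1 upstream: gtccgttctaGAACCTTCCGGAAggccccg
A further RefSeq start site of *Hspd1*, at 55088243, lies beyond the *Hspe1* start instead. The motif letters describe the sequence, and no factor's binding was measured here.

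*Hspa9*, mitochondrial HSP70 and the import motor itself, was the exception over time. It had 298.8 FPKM in CTL and 160.2 in cKO at E11, and 238.2 and 145.9 at E14. The gene was lower in cKO at both stages, with ratios of 0.536 at E11 and 0.613 at E14. As deposited, *Hspa9* was the only member lower at E14 than at E11 in CTL (0.797). After upper-quartile scaling *Grpel2*, *Tomm6* and *Timm17b* were lower too, and 30 of 34 members lay above 1, against 43.3% of all genes. *Hspa9* kept the lowest ratio of the members in this comparison under each scaling. Its value also has the pseudogene limit given above. *Grpel1*, the nucleotide exchange factor of mitochondrial HSP70, had 14.7, 13.4, 24.5 and 19.0 FPKM. The ratio of *Hspa9* to *Grpel1* thus went from 20.3 in E11 CTL to 11.9, 9.73 and 7.70 in the other libraries. The second exchange factor, *Grpel2*, had 17.1, 17.0, 19.5 and 15.8 FPKM, and the ratio of *Grpel1* to *Grpel2* was below 1 in both E11 libraries (0.860 and 0.791) and above 1 in both E14 libraries (1.26 and 1.20).

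The processing peptidase and the matrix HSP90 had E14 genotype ratios of 0.745 to 0.875. *Pmpcb*, the catalytic subunit of the peptidase, had 53.9 FPKM in CTL and 56.4 in cKO at E11, and 114.4 and 100.1 at E14. *Pmpca*, its substrate-binding partner, had 21.1, 23.7, 27.8 and 20.8 FPKM. Although the proteins form a dimer, the ratio of *Pmpca* to *Pmpcb* transcripts was 0.391 and 0.421 at E11 and 0.244 and 0.207 at E14. *Trap1*, the mitochondrial HSP90, had 20.1, 21.7, 31.5 and 27.1 FPKM. The 8 matrix members had a median log2 ratio of cKO to CTL of 0.09 at E11 and -0.37 at E14, or -0.04 and -0.22 after upper-quartile scaling.

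**Figure D4:**
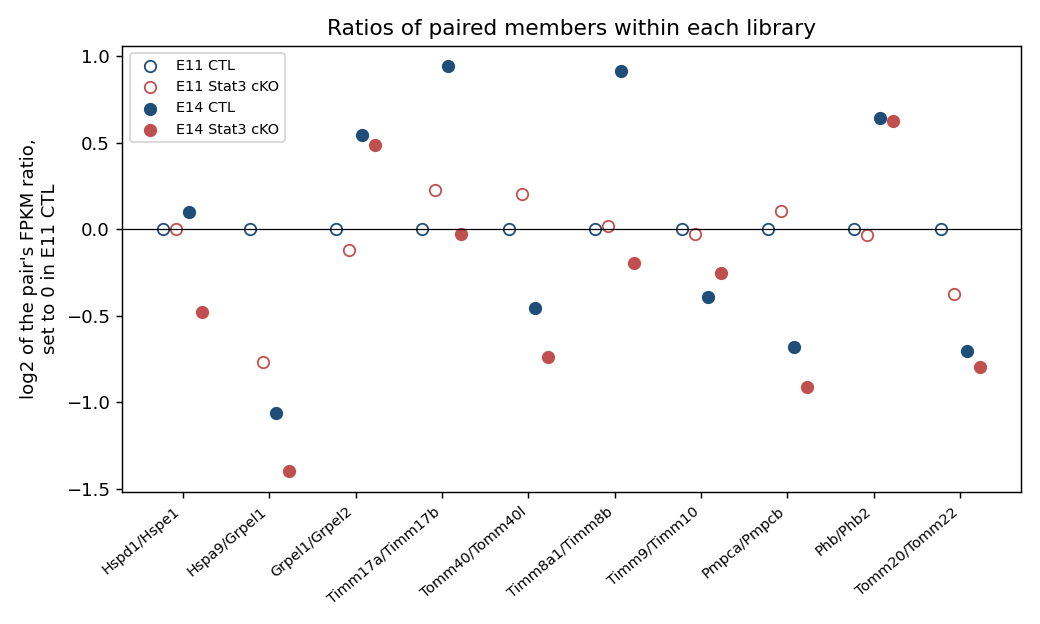
Ratio of FPKM within each library for 10 pairs of members, drawn as log2 and set to 0 in E11 CTL (open, E11; filled, E14; blue, CTL; red, *Stat3* cKO). E14 CTL stands above the other libraries for *Timm17a* to *Timm17b* and *Timm8a1* to *Timm8b*, E14 *Stat3* cKO stands below them for *Hspd1* to *Hspe1*, and both E14 libraries lie together for *Phb* to *Phb2*.

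Promoter sequences of RefSeq (GRCm38.p6, from 250 bases before to 50 after a start site) were matched by symbol for 31 of the 36 members, in 34 windows. *Grpel2*, *Hspa9*, *Timm21*, *Tomm40l* and *Tomm7* had no entry. The palindrome TTCNNNGAA, the core that STAT dimers recognise, occurred in 3 windows, or 8.82%, against 8.30% of all 32851 windows. For these 3 genes, *Phb*, *Timm13* and *Timm22*, the longest part of the 250 bases before the start site that lies in no annotated exon is shown. The STAT palindrome is in capitals and, in *Phb*, the E-box CACGTG too. The parts lie at chr11:95666707-95666956 (plus strand), chr10:80900970-80901202 (minus strand) and chr11:76406675-76406924 (plus strand).
Phb upstream: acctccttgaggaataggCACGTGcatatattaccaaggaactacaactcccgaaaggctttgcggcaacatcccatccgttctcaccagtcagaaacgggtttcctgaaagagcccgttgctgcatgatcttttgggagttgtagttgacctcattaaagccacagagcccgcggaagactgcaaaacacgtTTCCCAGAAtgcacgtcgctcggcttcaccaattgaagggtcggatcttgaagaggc
Timm13 upstream: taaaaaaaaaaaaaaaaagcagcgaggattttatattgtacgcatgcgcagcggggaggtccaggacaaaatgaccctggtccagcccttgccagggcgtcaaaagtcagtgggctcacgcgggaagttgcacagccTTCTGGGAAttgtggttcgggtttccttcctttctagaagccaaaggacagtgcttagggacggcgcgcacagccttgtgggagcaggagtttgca
Timm22 upstream: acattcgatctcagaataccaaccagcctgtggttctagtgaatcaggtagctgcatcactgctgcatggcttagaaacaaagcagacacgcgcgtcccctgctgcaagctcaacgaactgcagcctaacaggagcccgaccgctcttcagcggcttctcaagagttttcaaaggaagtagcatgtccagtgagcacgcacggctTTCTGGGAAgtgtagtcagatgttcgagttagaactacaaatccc
At E14 the genotype ratios of these 3 genes were 0.718, 0.7997 and 0.975, so none was among the 9 members at least 1.5-fold lower. A window without the letters says nothing of STAT3 binding elsewhere, and such a match is not a site.

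Other short motifs were counted on both strands of the same windows. The ETS core CCGGAA occurred in 17 of the 34 windows, or 50% (16 genes), against 14.9% of all windows. The E-box CACGTG occurred in 7 windows (20.6%, against 7.15%), the NRF1 core in 4 (11.8%, against 4.6%), the heat shock repeat in 3 (8.82%, against 7.86%) and the CHOP-type motif TGCAAT in 4 (11.8%, against 8.40%). The windows of all genes were not limited to genes transcribed in progenitors, and windows of one gene overlap, so these shares are descriptions. A window of *Hspd1* and that of *Hspe1* also share 285 bases. Both genes were counted for the ETS core, the heat shock repeat and the CHOP-type motif, so the same letters can count for both. Of the 9 members at least 1.5-fold lower at E14, *Hspa9* had no entry. *Hspd1*, *Timm10*, *Timm23*, *Timm8a1* and *Tomm5* held the ETS core, beside 16 of all 31 matched members. *Hspd1*, *Timm10*, *Timm8a1* and *Timm9* held the E-box, beside 7 of the 31. Whether either motif goes with the E14 ratio was not tested. The stretch before the start site of *Timm8a1*, the member with the lowest E14 ratio, is shown with its E-box in capitals, from chrX:134541866-134541920 (minus strand).
Timm8a1 upstream: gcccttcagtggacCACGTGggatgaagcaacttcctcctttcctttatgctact

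In the E14 genotype ratio, import genes outside the symbol rule stood nearer to the background. Of 19 other import parts, 13 had an E14 ratio of cKO to CTL below 1 (median log2 ratio -0.23), beside 60.1% of all genes, and 2 were at least 1.5-fold lower, beside 7.67%, so this list lay near the background. The 2 were *Chchd4* and *Gfer*, which encode the oxidoreductases of the intermembrane space. *Chchd4* had 13.6 FPKM in CTL and 14.7 in cKO at E11, and 42.7 and 23.2 at E14, and *Gfer* had 14.8, 14.96, 29.01 and 17.7. Their E11 log2 ratios of cKO to CTL were 0.12 and 0.02. The 2 highest E14 log2 ratios belonged to *Hscb*, a co-chaperone of iron-sulphur cluster assembly, at 0.34, and *Oxa1l*, the insertase for proteins made inside mitochondria, at 0.19. Over time in CTL, 7 of the 19 were at least 2-fold higher at E14, beside 14.6% of all genes (median log2 ratio 0.74, beside 0.21). In *Stat3* cKO 0 were, beside 10.1% (median 0.43, beside 0.06).

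The E14 median log2 ratio was -0.13 for 12 matrix and inner membrane proteases (9 lower in cKO) and -0.28 for 6 cristae genes (6 lower). Beside these and the further E14 counts in this paragraph, 60.1% of all genes were lower and 7.67% were lower by at least 1.5-fold. Chaperones outside mitochondria were also lower, with a median of -0.45 over 10 cytosolic chaperones (10 lower, 0 by at least 1.5-fold) and -0.47 over 8 subunits of the cytosolic chaperonin (8 lower, 2 by at least 1.5-fold). The 14 markers of proliferating cells had a median of -0.55 (13 lower, 7 by at least 1.5-fold) at E14. At E11 it was 0.50 (14 higher, beside 61.8% of all genes), and for E14 over E11 it was 1.13 in CTL and 0.18 in *Stat3* cKO. The 7 were *Mcm2* to *Mcm7* and *Pcna* (log2 ratios of -1.17 to -0.71). The other markers lay nearer to 0 at E14, from -0.40 for *Cdk1* to 0.22 for *Mki67*, which was higher in cKO. The list median thus moved with that of the members at E14 and over time in CTL, though not every marker did at E14. The part of these genes in the members' ratios was not tested.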

How the data were processed

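Polyadenylation or strand selection is not given in the sources used here. The submitters' processing notes name Bowtie 0.12.2 and the mouse builds mm8 and mm9, and the study's methods describe FastQC and the TopHat and Cufflinks pipeline. The authors deposited FPKM per gene for each library, and these values were used as deposited. Only 2 of 36 listed starts lay within 1000 bases of GRCm38, so listed positions were used for chromosome and overlap alone, and promoter positions are those of RefSeq GRCm38.p6. FPKM hold no counts, so absolute depth is unknown. The steps that single fragments leave in low values gave depths, relative to E14 *Stat3* cKO, of 1.07 and 0.832 for CTL and cKO at E11 and of 0.936 for E14 CTL.

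With 1 library per group, no test was run and no p-value is given. Genes averaging 1 FPKM or more with values above 0 in both libraries were compared by the log2 ratio of FPKM with no pseudocount (12430 genes, or 12426 for *Stat3* cKO over time). Thresholds were 1.5-fold for genotype and 2-fold for stage. Every member could be named, and of the other import, protease, cristae and cytosolic chaperone genes the 2 lowest and 2 highest E14 ratios with a mean of at least 5 FPKM, with *Stat3* and *Ddx3y* as checks. Alternatives were pseudocounts, scalings, minimum means, folds and changed membership. The count of members highest in E14 CTL, its scaling, and the shares of all genes beside counts of sign patterns were added after the data were seen. Members and lists were chosen with earlier results of these data known. Scripts in Python 3.11.15 with pandas 2.3.3 and numpy 2.4.6 were tested on simulated data.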

Additional observations from a re-analysis of the deposited data

Results flagged for a closer look

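The ratio of *Stat3* cKO to CTL pointed in opposite directions at E11 and E14 for the members' median and for 8 members at least 1.5-fold lower at E14. The difference between the stages was not tested, since each group is 1 library. The median log2 ratio was -0.40 at E14 and 0.06 at E11, with the E11 sign depending on the scaling. *Timm8a1* had log2 ratios of -1.22 at E14 and 0.15 at E11, *Hspd1* of -0.95 and 0.16, *Timm10* of -0.85 and 0.06, and *Timm17a* of -0.84 and 0.15. *Timm23* had -0.76 and 0.05, *Timm9* -0.71 and 0.03, *Tomm5* -0.70 and 0.24, and *Tomm40* -0.60 and 0.27. Among these 8 genes, the E11 ratios of *Timm10*, *Timm9* and *Timm23* fell below 1 under each of the 3 scalings tried.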

How the results depend on the processing

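No paired analysis was possible because each group holds 1 library and the labels give no replicate numbers, and leaving out a replicate was not possible for the same reason. With upper-quartile scaling the E14 genotype median went from -0.40 to -0.25, the members at least 1.5-fold lower from 9 to 5, the E11 genotype median from 0.06 to -0.0616, the CTL stage median from 1.0 to 0.66 and the members at least 2-fold higher in CTL from 17 to 10. With the median of genes of at least 50 FPKM set to 0, these were -0.23, 5, -0.0395, 0.40 and 4, and the *Stat3* cKO stage median went from 0.54 to 0.21. Centred on the median of all genes, the CTL stage median was 0.79. Folds of 2 and 3 left 1 and 0 members lower at E14, a fold of 3 left 5 higher in CTL and 0 in *Stat3* cKO over time, and a fold of 1.5 gave 14 in *Stat3* cKO. With no minimum mean the 2-fold count in *Stat3* cKO over time was 2, not 1. The other 51 values kept their sign, the medians moving by under 0.1 and the counts by at most 1.5 times, among them those with pseudocounts of 0.1 and 1, without the X-linked members and with 2 import genes of other symbols (*Pam16* and *1810026J23Rik*) added. No member entry joined several symbols, so a set of single-symbol entries is the set reported. No single member past its threshold reversed under any pseudocount or scaling, though 73 of their values moved by at least 0.1 on the log2 scale.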
